A study of Mus musculus with 12 samples.

Results

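The expression difference examined here is that between aortic endothelial cells lacking Ets2 and cells labelled as lacking Ets1 as well. By the labels it is the effect of Ets1 loss where Ets2 was already deleted, but the Ets1 and Ets2 readings given below go against those labels. It rests on 5 of the 12 arrays of the series, chosen by their titles. The Ets2KO group (3 arrays) was Ets1+/+;Ets2fl/fl and the group labelled DKO (2 usable arrays) was Ets1-/-;Ets2fl/fl, and both received a lentivirus that carries eGFP and Cre. The remaining groups, used to set the comparison against Ets1 loss where Ets2 was present, received a lentivirus with eGFP alone. They were WT (Ets1+/+;Ets2+/+) and Ets1KO (Ets1-/-;Ets2fl/fl), with 3 arrays each. All cells came from the aorta of 4-week-old mice and were grown in serum with endothelial growth supplement. Cre was delivered by virus to cells in culture, so any cell that escaped it would keep Ets2. Titles and genotypes of the Ets1KO and Ets2KO samples say null, whereas the short descriptions of these samples call them wild type, and titles and genotypes were followed. Each value is a log2 hybridisation intensity from an Affymetrix probe set minus the median of its array, and each gene was read from its brightest probe set. Of 11015 genes measured, 10687 remained after those on chromosomes X and Y were left out.

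Ets1 and Ets2 are closely related transcription factors of the ETS family, which bind a DNA core of GGAA and are activated through phosphorylation by ERK kinases. In endothelium ETS factors act on genes of angiogenesis, matrix remodelling and endothelial identity, and their binding sites are shared among family members, so that loss of a single factor can be masked by another. The low-oxygen response described below runs on a separate factor, HIF, which is destroyed after hydroxylation by Egln enzymes when oxygen is present and which turns on glycolysis, glucose uptake and Vegfa.

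Several properties of the arrays bear on every value. The third column labelled DKO equalled the average of the other DKO columns in 20521 of 20523 probe sets (tolerance 1e-05) and was left out, so that group had 2 arrays. Array medians were 8.29 and 8.30 for DKO, against 9.06 to 9.08 for Ets2KO, and sorted values differed by -0.83 at the 1st percentile and by -0.38 at the 99th. Subtracting medians therefore leaves a gap of 0.39 at the brightest end, and values as deposited or after quantile normalisation are given where they change a named gene's direction or call. Correlation between arrays was 0.905 within DKO, 0.882 to 0.971 within Ets2KO and 0.789 to 0.821 between these groups. The arrays labelled DKO differed from each other by over 2 in 317 genes, and Ets2KO replicate 3 differed from the mean of the other Ets2KO arrays by over 2 in 359. Xist, the transcript that silences an X chromosome, read -1.74 to -1.56 in Ets2KO and 4.68 and 4.90 in DKO, and Y-linked Eif2s3y read 0.22 to 1.15 in Ets2KO and -4.66 and -4.64 in DKO. The Ets2KO arrays thus carried a male pattern and the arrays labelled DKO a female one; WT held 1 array with a male and 2 with a female pattern, and Ets1KO was female throughout. Sex and genotype cannot be told apart in this comparison. Samples are titled as biological replicates, yet no label states that separate animals were used, so p-values measure only the spread between these samples. In bulk RNA, fewer cells of a type and less RNA per cell cannot be told apart.

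The targeted gene was examined first, and it went against the label. Ets1 at its brightest probe set read 0.43, 0.49 and 0.80 in Ets2KO and 1.72 and 1.99 in the arrays labelled DKO. Every array of the group labelled Ets1-null was therefore above every Ets2KO array. The difference was 1.28 (SE 0.26, limma adjusted p = 0.00615), whereas Ets1KO was 1.36 below WT (limma adjusted p = 0.16, not called). As deposited the DKO difference was 0.51 (adjusted p = 0.128), and with the mean of probe sets 0.61 (adjusted p = 0.0847). Of the other Ets1 probe sets, a pair differed by 1.03 and 0.80 and the last by -0.69, and each of the 4 had an exact two-sided permutation p of 0.1, the smallest that 2 against 3 arrays allow. No source used here places these probe sets inside or outside the deleted segment of Ets1. For this reason the group is called by its label throughout, and every direction below holds for the arrays so labelled. Ets2, floxed and exposed to Cre in both groups, read 0.55, 0.29 and 1.05 in Ets2KO and 2.72 and 1.34 in the arrays labelled DKO. Both of the latter lay above Ets2KO, but they were far apart. WT arrays read 0.68, 0.89 and 1.59 and Ets1KO arrays 1.15, 1.23 and 1.39, so Ets2KO overlapped WT and neither array labelled DKO was below the WT range. The difference of 1.40 (SE 0.41, adjusted p = 0.0301) fell to 0.71 without DKO replicate 1 (adjusted p = 0.218). Its call was also lost without Ets2KO replicate 1 (1.36, adjusted p = 0.074), without Ets2KO replicate 2 (1.22, adjusted p = 0.0861), as well as after quantile normalisation (1.23, adjusted p = 0.0515) and as deposited (0.62, adjusted p = 0.255). The second Ets2 probe set gave 0.75.

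Relative to array medians, 2097 genes were higher in the arrays labelled DKO (19.6% of those tested) and 1311 lower (12.3%) at limma adjusted p below 0.05, together 31.9%. The median difference was 0.94 among the rises and -1.09 among the falls. The median over all genes was 0.19, and 60.7% of genes were above 0. This balance moved with the scaling: quantile normalisation gave 1571 genes higher and 1427 lower, and deposited values 310 higher and 4685 lower. Arrays of the groups did not overlap for 3790 genes with higher values (35.5%) and 2274 with lower values (21.3%). When male or female pattern, read from Eif2s3y, was added to the fit as a covariate, 275 of the 3408 calls were kept. Within groups only WT held both patterns, so that fit rests on WT replicate 1 against the other WT arrays and does not separate sex from genotype. Among the genes named below it kept the calls on Egln3, Ptgs2, Higd1a, Tnfrsf9, Ero1a, Tpd52, Aldoa, Nfkbiz, Nfkbia and Rps7 as higher. It also kept those on Qsox1, Gna12, Rgs3, Erf, Notch1, Smad5, Psmd13, Ndufv1, Anapc5 and Cenpb as lower. All of these but Rps7 also kept their calls under each other scaling, probe set rule and left-out array that could be run for them.

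Probe sets of the same gene agreed less here than for Ets1KO against WT. The intraclass correlation of their differences was 0.403 over 4637 genes with more than 1 probe set, against 0.768 for Ets1KO minus WT. In 115 genes probe sets moved by more than 1 in opposite directions, against 0 genes in that other comparison. Weight was therefore given to genes in which at least 2 probe sets were called in the same direction and all differed that way. There were 424 such genes with higher values (9.14% of the 4637) and 259 with lower values (5.59%). Of the 424, 50 held as deposited, and of the 259, 252 held under all 3 scalings. As deposited, every difference is moved by the same -0.77, which lowers rises and deepens falls. These counts therefore do not compare how well rises and falls hold. Of the 3408 calls, 1853 were genes with a single probe set, for which no such check exists. Among genes named below these include Apoe, Pla2g7, Phlda3, Ctsd, Map2k1, Ilk, Scap, Sqle, Sdf2l1 and Rps6. Plvap, Vegfb, Bmp2, Ier3, Casp2, Bik, Ifit2 and Stat2 had a single probe set as well.

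**Figure D1:**
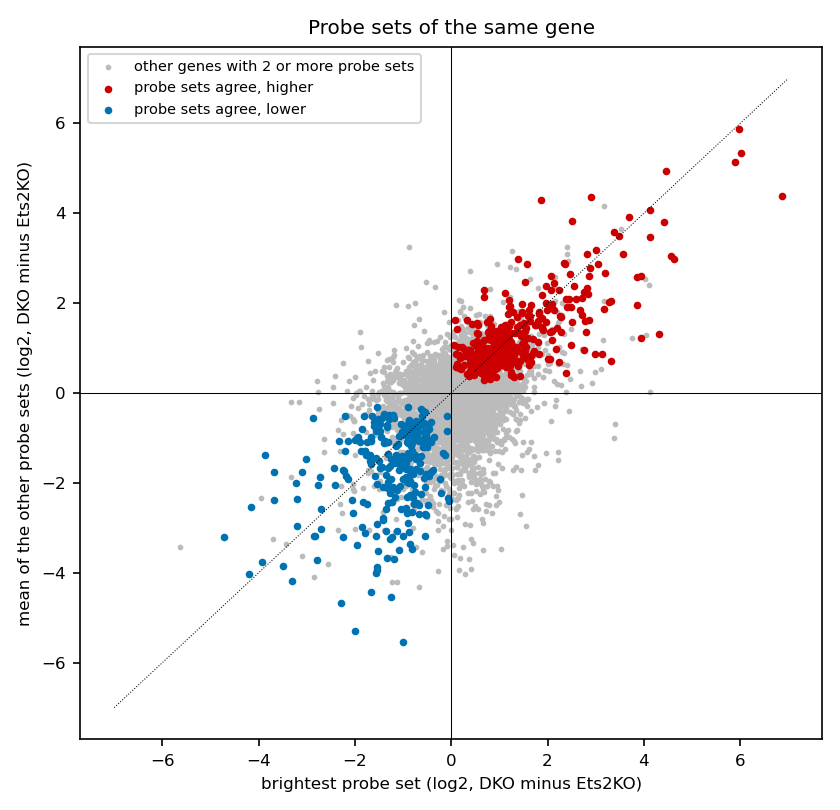
Each point is 1 gene with at least 2 probe sets, with the log2 difference of the arrays labelled DKO minus Ets2KO at its brightest probe set on the x axis and the mean over its other probe sets on the y axis; the dotted line marks equal values. The 424 genes that agree as higher (red) and the 259 that agree as lower (blue) lie apart by the rule that defines them. In the grey cloud the probe sets of many genes point opposite ways.

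Of the 14 largest rises among agreeing genes, 4 were on the list of hypoxia-induced genes (Egln3, Higd1a, Ero1a and Pdk1). Egln3, a HIF hydroxylase that is itself induced by HIF, read -2.56, -1.74 and -2.21 in Ets2KO and 3.89 and 3.72 in the arrays labelled DKO. The groups were far apart, and the difference was 5.98 (SE 0.45, adjusted p = 1.07e-04), with 5.87 at its second probe set. Higd1a, a hypoxia-induced protein of the mitochondrial inner membrane, read 1.16, 1.09 and 1.41 against 5.08 and 4.75. All 3 of its probe sets gave 3.69 to 4.02 (SE 0.31 at the brightest, adjusted p = 1.39e-04). Ero1a, the oxidase that recharges protein disulphide isomerase in the endoplasmic reticulum, read 1.78, 1.67 and 1.75 against 4.65 and 5.58. Its difference was 3.38 (SE 0.40, adjusted p = 6.55e-04) and its Ets2KO arrays were nearly identical. Pdk1, a kinase that inhibits pyruvate dehydrogenase, rose by 2.50 (SE 0.34, adjusted p = 0.00124), with 4.03 and 3.61 at its other probe sets.

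The next rises are of genes not on the list of hypoxia-induced genes, which does not place them outside the low-oxygen response. Ptgs2, the inducible cyclo-oxygenase of prostaglandin synthesis, read -3.19, -2.97 and -4.83 in Ets2KO and 3.28 and 3.12 in the arrays labelled DKO. It thus went from well below to well above the array median, a difference of 6.86 (SE 0.83, adjusted p = 6.93e-04) at the brightest probe set and 4.39 at the other. Tnfrsf9, a co-stimulatory receptor of the tumour necrosis factor family, read -0.78, -1.10 and -0.83 against 3.39 and 3.04 and rose by 4.12 (SE 0.29, adjusted p = 1.01e-04). Tpd52, a regulator of vesicle traffic, read -0.17, -0.26 and -0.67 against 2.50 and 3.87 and rose by 3.56 (SE 0.39, adjusted p = 4.53e-04). Vnn1, a pantetheinase, read -4.80, -4.28 and -2.28 against 1.71 and 2.48, a difference of 5.88 (SE 1.10, adjusted p = 0.00478). In each of these genes the groups were separate, as the rule that chose them required. Lox, the enzyme that cross-links collagen and elastin, read -1.43, -1.97 and 1.75 against 5.86 and 5.08, a difference of 6.02 (SE 1.32, adjusted p = 0.00912). Ets2KO replicate 3 stood apart in Lox, and without DKO replicate 1 the value was 5.63 (adjusted p = 0.0526). Col1a1, the main chain of type I collagen, rose by 3.49 (SE 0.60, adjusted p = 0.00335) and by 3.48 at its second probe set.

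The remaining rises rest on less. Prss23, a secreted serine protease, differed by 4.47 (adjusted p = 0.0127) and lost its call without DKO replicate 1 (3.76, adjusted p = 0.0821). The cationic amino acid transporter Slc7a2 differed by 4.41 (adjusted p = 0.00906) and lost its call without DKO replicate 2 (3.95, adjusted p = 0.0586). Sulf1, which removes sulphate from heparan sulphate, differed by 4.13 (adjusted p = 0.0318). That call did not hold as deposited (3.36, adjusted p = 0.0514) or without Ets2KO replicate 1 (3.50, adjusted p = 0.092), Ets2KO replicate 3 (4.29, adjusted p = 0.051), DKO replicate 1 (3.34, adjusted p = 0.168) or DKO replicate 2 (4.92, adjusted p = 0.0613). The annexin Anxa8 read 0.62 and 3.73 in the arrays labelled DKO, a difference of 2.90 (adjusted p = 0.0309). Without DKO replicate 2 it was 1.34 (adjusted p = 0.22), and the call was also lost as deposited (2.13, adjusted p = 0.0706) and without Ets2KO replicate 1 (2.95, adjusted p = 0.067), replicate 2 (2.96, adjusted p = 0.0652) or replicate 3 (2.80, adjusted p = 0.063).

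Among the 14 largest falls of agreeing genes, Qsox1, a secreted enzyme that forms disulphide bonds, read 3.73, 3.38 and 2.10 in Ets2KO and -2.06 and -1.25 in the arrays labelled DKO. The fall of 4.73 (SE 0.48, adjusted p = 3.44e-04) took it from among the bright genes to below the array median, and its other probe set gave -3.21. Gna12, the G protein subunit that signals to RhoA, read 1.24, 1.29 and 1.31 against -2.72 and -2.59. Within each group the values were nearly equal, and the difference was -3.93 (SE 0.34, adjusted p = 1.64e-04), with -3.75 at the other probe set. Rgs3, which speeds GTP hydrolysis by G protein subunits, fell by 2.29 (SE 0.25, adjusted p = 4.77e-04) and by 4.67 at its second probe set. Cd99, a surface glycoprotein used by leukocytes in crossing endothelium, fell by 2.79 (SE 0.39, adjusted p = 0.00137), with -4.03 and -3.39 at the others. Sema3f, a secreted guidance cue, fell by 1.55 (SE 0.33, adjusted p = 0.00821), with larger falls of 3.92 and 3.83 at its dimmer probe sets.

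Other falls depended on single arrays. Ace, the angiotensin-converting enzyme of endothelial surfaces, read 3.77, 3.52 and 3.47 in Ets2KO and -1.47 and 1.31 in the arrays labelled DKO. The groups were separate by the rule that chose the gene, but the difference of -3.67 (SE 0.80, adjusted p = 0.00899) became -2.28 without DKO replicate 1. The collagen receptor Mrc2 fell by 2.01 (adjusted p = 0.0117; -1.56 without DKO replicate 1, adjusted p = 0.083). The kinase Akt1 fell by 0.99, with 5.53 at its dimmer probe set (adjusted p = 0.011; -0.87 without DKO replicate 2, adjusted p = 0.068). The imprinted zinc finger gene Peg3 differed by -4.15 (adjusted p = 0.0188), by -4.20 without DKO replicate 1 (adjusted p = 0.0729) and by -4.11 without DKO replicate 2 (adjusted p = 0.0785). Stat5a, a cytokine-activated factor, differed by -1.66 (adjusted p = 0.025) and by -1.20 without DKO replicate 2 (adjusted p = 0.162). Rgs17 (-2.85), the metalloprotease Mmp23 (-3.32) and Ecrg4 (-3.49) had adjusted p of 0.0266, 0.0464 and 0.0314. All 3 lost their calls without DKO replicate 1 (-3.12, -3.38 and -3.69, adjusted p = 0.073, 0.135 and 0.0929), DKO replicate 2 (-2.58, -3.26 and -3.30, adjusted p = 0.122, 0.149 and 0.125) or Ets2KO replicate 1 (-2.63, -3.29 and -3.50, adjusted p = 0.074, 0.0969 and 0.0703). The Rgs17 call was also lost without Ets2KO replicate 2 (-2.56, adjusted p = 0.0761), and those of Mmp23 and Ecrg4 without Ets2KO replicate 3 (-2.72 and -2.65, adjusted p = 0.108 and 0.0686). Mmp23, nearest the threshold, missed it without WT replicate 2 or Ets1KO replicate 3 as well (adjusted p = 0.0638 and 0.0599).

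**Figure D2:**
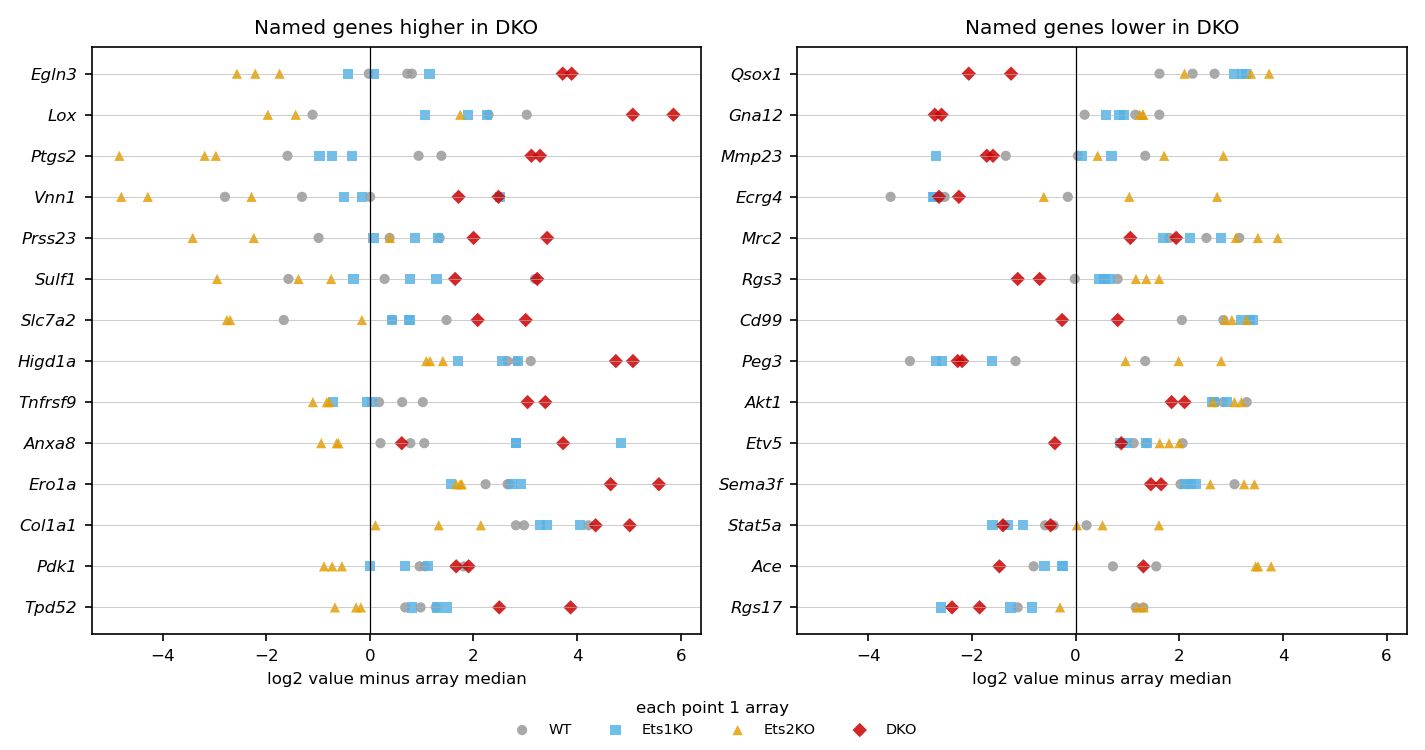
Each point is 1 array, and the x axis is its log2 value minus the array median for the 14 largest rises (left) and 14 largest falls (right) among genes whose probe sets agree. The red diamonds of the 2 arrays labelled DKO are separate from the orange triangles of Ets2KO in each gene by the rule that chose them; in Qsox1, Gna12, Rgs3 and Cd99 they also lie below all WT and Ets1KO arrays, and in Egln3, Higd1a, Ptgs2 and Tnfrsf9 above them.

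Hypoxia-induced genes rose as a group. Like the other lists here, this one was chosen with earlier results of these data known, so its share is no independent support. Of 27 measured members, 20 were higher (19.6% of all genes were), 26 had a difference above 0, and the median was 2.30 against 0.19 over all genes. The mean over the list was -0.22, 0.14 and 0.39 in Ets2KO and 2.59 and 2.81 in the arrays labelled DKO. WT arrays read 0.74, 0.88 and 1.02 and Ets1KO arrays 0.12, 0.87 and 0.59, so the Ets2KO arrays were on the low side of the series and the arrays labelled DKO above every other array. As deposited the list's median was 1.53 with 15 members called higher. Ndrg1, a stress-responsive gene, rose by 4.62 (SE 0.93, adjusted p = 0.00663) and by 1.35 to 5.07 at its other probe sets. Vegfa, the main angiogenic growth factor and a HIF target, read -1.14, -0.71 and 0.44 in Ets2KO and 1.83 and 2.73 in the arrays labelled DKO. The arrays were separate and the difference was 2.75 (SE 0.48, adjusted p = 0.00365), with 0.96 at its second probe set. Ankrd37 (5.71), P4ha2, a collagen prolyl hydroxylase (5.14), Bnip3, which promotes mitophagy (3.85), and the glucose transporter Slc2a1 (2.87) rose too; they fall outside the naming rule and are named after their values were seen.

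Enzymes of glycolysis and glycogen metabolism moved with them, 18 of 21 being higher (85.7%, against 19.6% of all genes), with a median of 1.55. That list, too, was chosen with earlier results of these data known. Its mean was 1.13, 1.07 and 1.41 in Ets2KO and 2.91 and 3.35 in the arrays labelled DKO, without overlap. As deposited the median was 0.78, with 12 higher. Aldoa, which splits fructose bisphosphate, read 4.33, 4.28 and 4.34 against 5.64 and 5.72. Replicates lay within a narrow band, and all 5 of its probe sets gave 1.03 to 1.97 (1.36 at the brightest, SE 0.14, adjusted p = 3.83e-04). Tpi1, which interconverts the triose phosphates, rose by 1.60 (SE 0.19, adjusted p = 6.33e-04) and Pgm1, which links glycogen to glycolysis, by 2.49 (SE 0.44, adjusted p = 0.00363). Pfkl, a phosphofructokinase, rose by 1.66 (SE 0.36, adjusted p = 0.00836) and by 0.89 as deposited (adjusted p = 0.0719). Hexokinase Hk2, named after its values were seen, had a single probe set and rose by 5.57. In Pfkp and Hk1 the probe sets ran from -3.69 to 3.37 and from -2.96 to 1.55, so their rises rest on the brightest probe set.

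**Figure D3:**
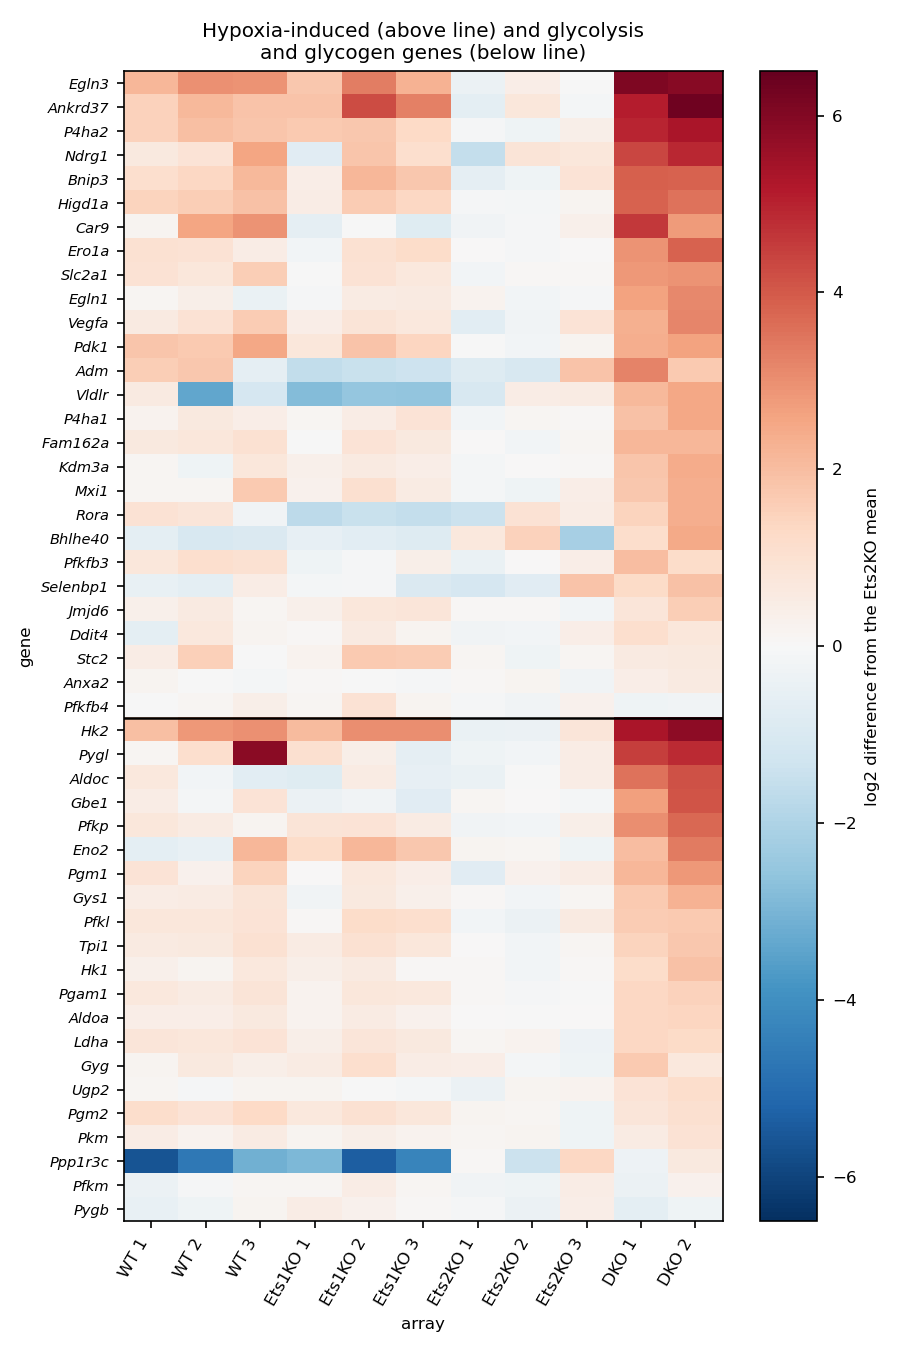
The heat map gives, for each hypoxia-induced gene (above the line, 27 genes) and glycolysis or glycogen gene (below, 21 genes), the log2 value of each array minus the Ets2KO mean of that gene. The columns of the arrays labelled DKO are red for nearly all genes, and WT and Ets1KO columns are mostly paler, with list means for the hypoxia-induced genes of 0.12 to 1.02 against 2.59 and 2.81.

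Promoters of the genes that moved furthest were read to see whether the letters of an ETS site stand near their starts. The windows run from 250 bases before to 50 after the start site in RefSeq (build GRCm38.p6) and were found for 8629 of the 10687 genes. CCGGAA on either strand occurred in 27.6% of all 11064 windows, in 28.3% of those of agreeing genes with higher values and in 29.7% with lower values. The hypoxia core ACGTG or GCGTG, on either strand, occurred in 62.5% of all windows, 66.9% of the agreeing higher and 57.4% of the agreeing lower, and in 78.8% of those of the hypoxia-induced list, where CCGGAA occurred in 12.1%. These are counts of letters, not of bound sites. Among the named largest changes, no window was examined singly for Lox, Vnn1, Sulf1, Slc7a2, Col1a1, Tpd52, Mrc2, Cd99 or Sema3f. Whether CCGGAA stands near the starts of those genes is therefore not stated here. Among the other named largest changes, CCGGAA was found in windows of Higd1a, Ero1a and Qsox1, which are shown first. It is in capitals there (as TTCCGG where it lies on the opposite strand). The window of Egln3, the HIF hydroxylase with the largest mean rise over probe sets, follows with its hypoxia core in capitals. Each window is read 5′ to 3′ along the gene.
Higd1a, chr9:121857747-121858046, minus strand: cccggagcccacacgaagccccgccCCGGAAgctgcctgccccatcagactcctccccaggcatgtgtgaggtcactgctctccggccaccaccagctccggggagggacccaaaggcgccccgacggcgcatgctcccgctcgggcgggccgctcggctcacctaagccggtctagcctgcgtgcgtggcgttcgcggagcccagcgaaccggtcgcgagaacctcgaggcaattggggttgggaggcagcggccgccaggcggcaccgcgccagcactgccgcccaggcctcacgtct
Ero1a, chr14:45318523-45318822, minus strand: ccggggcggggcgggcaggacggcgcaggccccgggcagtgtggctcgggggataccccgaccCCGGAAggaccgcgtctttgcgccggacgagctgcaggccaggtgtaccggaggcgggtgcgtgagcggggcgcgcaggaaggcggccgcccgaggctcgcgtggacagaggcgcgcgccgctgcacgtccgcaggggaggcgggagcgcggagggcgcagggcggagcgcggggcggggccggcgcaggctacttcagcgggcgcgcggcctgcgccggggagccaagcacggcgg
Qsox1, chr1:155812850-155813149, minus strand: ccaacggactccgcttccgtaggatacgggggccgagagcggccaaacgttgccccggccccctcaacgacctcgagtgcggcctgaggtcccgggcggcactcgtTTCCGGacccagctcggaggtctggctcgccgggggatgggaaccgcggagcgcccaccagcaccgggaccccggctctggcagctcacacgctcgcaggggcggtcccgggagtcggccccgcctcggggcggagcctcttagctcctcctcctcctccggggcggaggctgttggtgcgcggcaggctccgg
Egln3, chr12:54203825-54204124, minus strand: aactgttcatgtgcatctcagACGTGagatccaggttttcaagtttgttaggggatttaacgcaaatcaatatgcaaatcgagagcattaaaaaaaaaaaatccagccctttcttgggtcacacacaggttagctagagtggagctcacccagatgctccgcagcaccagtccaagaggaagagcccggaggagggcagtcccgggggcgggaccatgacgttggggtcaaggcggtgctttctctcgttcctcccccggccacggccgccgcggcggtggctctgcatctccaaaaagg
Of these 4 genes, Higd1a, Ero1a and Egln3 rose and Qsox1 fell, so the few windows with the ETS letters stood beside genes that moved in both directions. They are too few to relate the letters to a direction. The hypoxia core also occurred in the windows of Higd1a (3 times), Ero1a (3) and Qsox1 (1), where it is not in capitals.

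Among the ETS family itself, 12 of 25 listed genes were measured and the median was -0.01. Of the 12, 3 were higher (25%) and 2 lower (16.7%), against 19.6% and 12.3% of all genes. Erf, a repressor that is held off by ERK phosphorylation, read 0.37, 0.19 and -0.15 in Ets2KO and -1.37 and -1.59 in the arrays labelled DKO. It lay below every other array of the series there, with a difference of -1.61 (SE 0.18, adjusted p = 4.83e-04) at its single probe set. Etv5, an activator of the Pea3 group, fell by 1.57 (SE 0.39, adjusted p = 0.015) and by 3.54 and 4.49 at its other probe sets, though its brightest gave -0.93 without DKO replicate 1 (adjusted p = 0.102). The rises were those of Ets1, Ets2 and the repressor Etv3 (0.74, adjusted p = 0.0272; -0.04 as deposited, adjusted p = 0.903), the last named after its values were seen. Of 17 ERK pathway and feedback genes, 7 were higher (41.2%, against 19.6% of all genes) and 1 lower (5.88%, against 12.3%), with a median of 0.29. Map2k1, the kinase that activates ERK, rose by 1.65 (SE 0.25, adjusted p = 0.00184). Braf, which acts above it, rose by 0.93 (adjusted p = 0.00212), by 0.16 as deposited (adjusted p = 0.43) and by 0.03 to 0.55 at its other probe sets. The adaptor Shc1 fell by 0.87 (adjusted p = 0.0212) and lost that call without DKO replicate 1 (-0.92, adjusted p = 0.0673), DKO replicate 2 (-0.83, adjusted p = 0.0923), Ets2KO replicate 1 (-0.72, adjusted p = 0.0642) or Ets2KO replicate 2 (-0.87, adjusted p = 0.0546).

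Of 26 endothelial identity genes, 7 were measured, and 2 of them fell (28.6%, against 12.3% of all genes), with a list median of -1.02. Eng, the endothelial co-receptor for TGF-beta, read 0.84, 1.77 and 1.33 in Ets2KO and -0.86 and -0.90 in the arrays labelled DKO. The groups were separate, and the values labelled DKO lay close to those of Ets1KO (-0.83, -0.85 and -0.82). The difference was -2.19 (SE 0.57, adjusted p = 0.0184), with -1.85 at the second probe set. The call was lost without Ets2KO replicate 2 (-1.96, adjusted p = 0.0566), DKO replicate 1 (-2.21, adjusted p = 0.0714) or DKO replicate 2 (-2.17, adjusted p = 0.0763). Plvap, which forms the diaphragms of fenestrae and caveolae, differed by -2.42 (adjusted p = 0.0283), and by -1.95 without DKO replicate 1 (adjusted p = 0.155). Its call was also lost without Ets2KO replicate 1 (-2.29, adjusted p = 0.0745), Ets2KO replicate 2 (-2.07, adjusted p = 0.0823) or DKO replicate 2 (-2.89, adjusted p = 0.054). Of 12 listed endothelial markers, 4 were measured, Eng among them, with a median difference of -0.57. Of these, 3 differed below 0 and 1 above, and 1 was called lower (25%, against 12.3% of all genes). In 2 of the 4, the arrays labelled DKO lay wholly below Ets2KO (21.3% of all genes did). Kdr and Flt1 were not among those 2. Kdr read -2.02 and -1.73 and Flt1 -0.52 and 1.19 in the arrays labelled DKO against -1.87 to -1.57 and -3.05 to 0.33 in Ets2KO, both without a call. Kdr was thus below the array median in all 5 arrays.

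Of 22 VEGF, Notch, angiopoietin and ephrin genes, 5 were higher (22.7%) and 3 lower (13.6%), shares near the 19.6% and 12.3% of all genes. Their median was 0.33. Notch1, the receptor that sets arterial and tip-cell fate, read 1.41, 1.14 and 1.78 in Ets2KO and -0.87 and -0.68 in the arrays labelled DKO. The fall of 2.22 (SE 0.21, adjusted p = 2.44e-04) left no overlap, and its other probe set gave -1.28. Nrp2, a co-receptor for VEGF and semaphorins, differed by 2.21 (adjusted p = 0.0177). That call was lost as deposited (1.44, adjusted p = 0.0607), without DKO replicate 2 (1.90, adjusted p = 0.102) and without Ets2KO replicate 1 (2.00, adjusted p = 0.0546). Vegfb differed by -1.27 (adjusted p = 0.0439) and lost its call without DKO replicate 1 (-0.98, adjusted p = 0.214), DKO replicate 2 (-1.55, adjusted p = 0.0707) or Ets2KO replicate 3 (-0.81, adjusted p = 0.0514). Leaving out any 1 WT or Ets1KO array, which leaves the Vegfb difference at -1.27, also ended the call (adjusted p = 0.0511 to 0.0632).

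Of 45 collagens, laminins and matrix assembly genes 11 were higher (24.4%) and 5 lower (11.1%), shares near the 19.6% and 12.3% of all genes, with a median of 0.49 that became -0.29 as deposited. Beside Lox and Col1a1, the collagen lysyl hydroxylase Plod2 rose by 2.37 (SE 0.48, adjusted p = 0.00678) and by 2.86 at its second probe set, with 1.95 without DKO replicate 2 (adjusted p = 0.0511). Col5a2, a fibril-forming collagen chain, differed by 3.01 (adjusted p = 0.0262) but read 5.54 and 2.80 in the arrays labelled DKO. Without DKO replicate 1 it differed by 1.64 (adjusted p = 0.192), and its call was lost as deposited (2.23, adjusted p = 0.0576) and without Ets2KO replicate 1 (2.90, adjusted p = 0.0676) or replicate 2 (2.94, adjusted p = 0.0649). Among 28 extracellular proteases and inhibitors, 3 were higher and 3 lower (10.7% each, against 19.6% and 12.3% of all genes). The lysosomal protease Ctsd read 4.60, 4.73 and 4.80 in Ets2KO and 2.24 and 2.74 in the arrays labelled DKO. It fell by 2.22 (SE 0.31, adjusted p = 0.00145) and the groups were far apart. Adam17, which sheds growth factors and cytokines from the cell surface, gave 1.34 at its brightest probe set (0.57 as deposited, adjusted p = 0.0631) but -3.10 and -0.18 at the others, so that the mean over probe sets had the opposite sign (-0.65, adjusted p = 0.0696). The metalloprotease Mmp19 differed by -1.42 (adjusted p = 0.031), and by -1.45 and -1.39 without DKO replicate 1 or 2 (adjusted p = 0.1 and 0.114). It also missed without Ets2KO replicate 1 (-1.45, adjusted p = 0.0668) or replicate 3 (-1.21, adjusted p = 0.0741).

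Of 21 integrin and focal adhesion genes, 3 were higher and 3 lower (14.3% each, against 19.6% and 12.3% of all genes). The adhesion kinase scaffold Ilk fell by 1.44 (SE 0.28, adjusted p = 0.00541) and zyxin (Zyx), an actin regulator of adhesions, by 1.52 (SE 0.31, adjusted p = 0.00708), though the second Zyx probe set gave -0.03. Integrin alpha V (Itgav) gave 1.35 and -0.59 at its 2 probe sets and 0.58 as deposited (adjusted p = 0.094). Tensin 1 (Tns1) differed by 1.89 (adjusted p = 0.0135), and its call was lost as deposited (1.12, adjusted p = 0.0754) and without DKO replicate 1 (1.87, adjusted p = 0.0602) or replicate 2 (1.91, adjusted p = 0.0571).

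Of 22 inflammatory adhesion and chemokine genes, 8 were higher (36.4%, against 19.6% of all genes) and 2 lower (9.09%, against 12.3%). Their median was 0.95 (0.18 as deposited). Nfkbiz, a nuclear co-regulator of NF-kappa-B targets, read -0.89, 0.06 and -0.27 in Ets2KO and 2.53 and 3.10 in the arrays labelled DKO. The latter lay in the range of WT (1.88 to 2.94) or just above it, and the difference was 3.18 (SE 0.38, adjusted p = 6.93e-04). Nfkbia, the inhibitor that NF-kappa-B induces against itself, rose by 1.99 (SE 0.40, adjusted p = 0.00678), with 1.80 to 1.88 at its 4 other probe sets. Tnfaip2 went the opposite way at -2.84 (adjusted p = 0.0262). It was -2.36 without DKO replicate 1 (adjusted p = 0.141), and the call was also lost without DKO replicate 2 (-3.32, adjusted p = 0.056), Ets2KO replicate 1 (-2.61, adjusted p = 0.0732) or Ets2KO replicate 2 (-2.57, adjusted p = 0.0744).

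Of 24 immediate-early factors, 10 were higher (41.7%, against 19.6% of all genes) and 2 lower (8.33%, against 12.3%), with a median of 1.18. Ier3, a stress-induced survival gene, differed by 3.54 (SE 0.77, adjusted p = 0.0089), and by 2.59 without DKO replicate 2 (adjusted p = 0.0688). Nr4a2, a nuclear receptor, differed by 1.62 (adjusted p = 0.00453), and by 0.60 without DKO replicate 1 (adjusted p = 0.139). The AP-1 subunits Fosl2 (1.64, adjusted p = 0.0217) and Jun (-1.16, adjusted p = 0.0169) moved in opposite directions. Without DKO replicate 1 they gave 0.97 (adjusted p = 0.159) and -0.85 (adjusted p = 0.117), and Fosl2 was not called as deposited (0.87, adjusted p = 0.143). Both also missed without Ets2KO replicate 1 (1.47 and -1.01, adjusted p = 0.0653 and 0.0535) or replicate 2 (1.43 and -1.09, adjusted p = 0.0659 and 0.0512). Of 20 interferon-stimulated genes 1 was higher and 1 lower (5% each, against 19.6% and 12.3% of all genes). Ifit2 gave 1.05 (adjusted p = 0.0149; 0.28 as deposited, adjusted p = 0.423, and 0.71 without DKO replicate 1, adjusted p = 0.107). Stat2, a subunit of the interferon-activated factor, gave -1.51 (adjusted p = 0.00887; -1.41 without DKO replicate 2, adjusted p = 0.0509).

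Of 34 TGF-beta and BMP genes, 8 were higher (23.5%, against 19.6% of all genes) and 7 lower (20.6%, against 12.3%). Smad5, which carries BMP signals, read 1.07, 1.14 and 1.39 in Ets2KO and -1.05 and -1.21 in the arrays labelled DKO. The groups were tight and separate, with a fall of 2.33 (SE 0.20, adjusted p = 1.52e-04), although its 3 probe sets ran from -2.33 to -0.22. The ligand Bmp2 read 1.75, 0.62 and -0.03 against -4.87 and -0.99. The pair labelled DKO was far apart, and the difference of -3.71 (adjusted p = 0.0267) was -1.77 without DKO replicate 1 (adjusted p = 0.185); it also missed without Ets2KO replicate 1 (-3.23, adjusted p = 0.0781) or replicate 2 (-3.79, adjusted p = 0.0583). The receptor Bmpr1a differed by 0.88 (adjusted p = 0.0148). Its call was lost as deposited (0.10, adjusted p = 0.724), with quantile normalisation (0.64, adjusted p = 0.0531) and without DKO replicate 2 (0.73, adjusted p = 0.09).

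Of 18 lipoprotein and lipid uptake genes, 1 was higher (5.56%, against 19.6% of all genes) and 4 lower (22.2%, against 12.3%). The list's median was -0.09, with 9 members above 0 and 9 below, and among the 12 with several probe sets no call was an agreeing one. Apoe, the ligand that clears remnant lipoproteins, read 1.93, 2.50 and 3.84 in Ets2KO and -3.61 and -3.67 in the arrays labelled DKO. WT arrays read -0.24, -3.06 and -2.91 and Ets1KO arrays -3.63, -3.43 and -3.12, so the Ets2KO arrays were the high ones and the arrays labelled DKO were at the level of Ets1KO. The difference was -6.40 (SE 0.81, adjusted p = 9.02e-04). Pla2g7, a lipoprotein-associated phospholipase, fell by 4.64 (SE 0.86, adjusted p = 0.00464). The scavenging receptor Lrp1 fell by 1.28 (adjusted p = 0.0134), and by 1.02 without DKO replicate 1 (adjusted p = 0.0895). Adipocyte markers moved alongside: Fabp4 read 2.90 to 4.64 in Ets2KO and 2.09 and -2.19 in the arrays labelled DKO, and Adipoq -1.92 to 4.14 against -3.20 and -4.34. The mean over the 4 adipocyte markers measured (8 listed, median difference -2.83) was 0.54 to 2.70 in Ets2KO and -0.42 and -2.00 in the arrays labelled DKO, and their part in these falls was not tested. Of 20 cholesterol synthesis genes, 3 were higher and 3 lower (15% each, against 19.6% and 12.3% of all genes). Sqle, squalene epoxidase, rose by 2.04 (SE 0.36, adjusted p = 0.00366) and Insig2, which retains the sterol sensor, by 1.81 (SE 0.32, adjusted p = 0.00401). Scap, the sterol sensor itself, fell by 1.52 (SE 0.25, adjusted p = 0.00254) and the transcription factor it escorts, Srebf2, by 0.83 (SE 0.16, adjusted p = 0.0049).

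Stress genes of the endoplasmic reticulum were higher in 8 and lower in 4 of 29 (27.6% and 13.8%, against 19.6% and 12.3% of all genes). Trib3, a pseudokinase induced by ATF4, read -2.12, -1.51 and -1.59 in Ets2KO and 1.49 and 0.72 in the arrays labelled DKO, a rise of 2.84 (SE 0.40, adjusted p = 0.00136). Ddit3, the stress factor CHOP, rose by 1.66 (SE 0.30, adjusted p = 0.00401), and both genes were separate between groups. Asparagine synthetase (Asns) differed by 1.48 (adjusted p = 0.0414), and lost its call as deposited (0.70, adjusted p = 0.254), after quantile normalisation (1.23, adjusted p = 0.0848) and without DKO replicate 1 (1.14, adjusted p = 0.208) or replicate 2 (1.81, adjusted p = 0.0668). The Asns call was also lost without Ets2KO replicate 1 (1.62, adjusted p = 0.0629), Ets2KO replicate 3 (1.12, adjusted p = 0.0935), WT replicate 1 (adjusted p = 0.0573) or Ets1KO replicate 2 (adjusted p = 0.0603). Sdf2l1, a chaperone cofactor, fell by 1.51 (SE 0.18, adjusted p = 6.71e-04).

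Of 25 p53-induced genes, 1 was higher (4%, against 19.6% of all genes) and 5 lower (20%, against 12.3%). Phlda3, an inhibitor of Akt, read 3.90, 3.99 and 3.88 in Ets2KO and -0.07 and 0.16 in the arrays labelled DKO, a fall of 3.88 (SE 0.58, adjusted p = 0.00181). Sesn2, a stress-induced regulator of mTORC1, fell by 1.66 (SE 0.31, adjusted p = 0.00479) and the p53-induced nuclease Aen by 1.43 (adjusted p = 0.0151; -1.04 without DKO replicate 2, adjusted p = 0.108). Rrm2b, a ribonucleotide reductase subunit, rose by 1.24 (SE 0.16, adjusted p = 0.0011). Of 22 apoptosis regulators, 3 were higher and 3 lower (13.6% each, against 19.6% and 12.3% of all genes). Bcl2l1, which encodes the survival protein Bcl-xL, read 0.75, 1.07 and 0.27 against -3.05 and -2.72. It fell by 3.58 (SE 0.44, adjusted p = 7.44e-04) at a single probe set, to below every other array. Bad, its pro-apoptotic partner, fell by 1.09 (SE 0.15, adjusted p = 0.00113). Caspase 2 (Casp2) differed by 1.23 (adjusted p = 0.0117) and Bik by 0.88 (adjusted p = 0.00676), but by 0.46 (adjusted p = 0.217) and 0.10 (adjusted p = 0.68) as deposited, and Casp2 by 0.81 without DKO replicate 2 (adjusted p = 0.0834).

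Cell cycle and replication genes gave a single call among 36, that of E2f1 (-1.08, adjusted p = 0.0289), which was lost without DKO replicate 1 (-0.68, adjusted p = 0.198), Ets2KO replicate 1 (-0.98, adjusted p = 0.0817) or Ets2KO replicate 2 (-0.97, adjusted p = 0.0823); its second probe set gave 0.42. That call is 2.78% of the list, against 12.3% of all genes called lower. The list's mean was 2.28, 2.08 and -1.44 in Ets2KO and 1.79 and 0.68 in the arrays labelled DKO, so Ets2KO replicate 3 stood far below the other arrays. Of 25 genes of the anaphase-promoting complex and centromere, 2 were higher (8%, against 19.6% of all genes) and 4 lower (16%, against 12.3%). Anapc5, a subunit of that complex, read 3.01, 3.05 and 2.51 in Ets2KO and -1.42 and -1.44 in the arrays labelled DKO, a fall of 4.29 (SE 0.26, adjusted p = 5.54e-05). The centromere protein Cenpb fell by 3.62 (SE 0.32, adjusted p = 1.72e-04) and the complex's activator Fzr1 by 2.80 (SE 0.35, adjusted p = 8.16e-04). Each of these had 1 probe set, and the subunit Anapc10 rose by 0.90 (adjusted p = 0.00328; 0.12 as deposited, adjusted p = 0.554).

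Deposited values differ from centred ones by the same -0.77 for every gene. Any list whose median is above 0 by less than the size of that shift therefore turns sign, as 12 of the 16 lists with a median above 0 did. Of 39 cytosolic ribosomal protein genes, 25 were higher (64.1%, against 19.6% of all genes). Their median was 0.49 relative to array medians, 0.01 after quantile normalisation and -0.29 as deposited. Rps7 read 5.17, 5.20 and 5.25 in Ets2KO and 6.05 and 6.09 in the arrays labelled DKO, a rise of 0.86 (SE 0.11, adjusted p = 9.14e-04) that was 0.09 as deposited (adjusted p = 0.541). Rps28 turned from 0.41 (adjusted p = 0.0223) to -0.076 after quantile normalisation and -0.36 as deposited (adjusted p = 0.643 and 0.0266). Its call was also lost without Ets2KO replicate 1 or 2 (0.40 each, adjusted p = 0.0664 and 0.0654) and without DKO replicate 1 or 2 (0.45 and 0.38, adjusted p = 0.0549 and 0.0906). Rps29 turned from 0.62 (adjusted p = 0.00355) to -0.15 as deposited (adjusted p = 0.287) and was 0.09 after quantile normalisation (adjusted p = 0.57). Rps6, the ribosomal protein phosphorylated by S6 kinases, rose by 1.51 (SE 0.18, adjusted p = 6.27e-04), and by 0.74 as deposited. Of 75 oxidative phosphorylation subunits, 24 were higher (32%, against 19.6% of all genes) and 8 lower (10.7%, against 12.3%). Their median of 0.26 was -0.51 as deposited. Cox5b (1.07, adjusted p = 0.00143) and Uqcrb (1.02, adjusted p = 7.10e-04) gave 0.29 and 0.25 as deposited (adjusted p = 0.139 and 0.13). Ndufv1, a core subunit of complex I, fell by 1.29 at its brightest probe set (SE 0.15, adjusted p = 6.03e-04) and by 0.45 and 0.52 at the others, and Cox8a by 0.84 (SE 0.16, adjusted p = 0.00497).

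Proteasome subunits were higher in 7 and lower in 10 of 31 (22.6% and 32.3%, against 19.6% and 12.3% of all genes), with a median of -0.16. Psmd13, a lid subunit, fell by 2.64 (SE 0.29, adjusted p = 4.83e-04) at its brightest probe set, with -2.47 and 0.44 at the others. Psma6 gave 0.84 (adjusted p = 0.00167) and Psmc6 0.66 (adjusted p = 0.00424), but 0.07 (adjusted p = 0.678) and -0.11 (adjusted p = 0.466) as deposited. Psma7 gave -0.75 (adjusted p = 0.0327), a call lost without DKO replicate 1 (-0.55, adjusted p = 0.185), Ets2KO replicate 1 (-0.67, adjusted p = 0.093) or Ets2KO replicate 2 (-0.66, adjusted p = 0.0952).

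**Figure D4:**
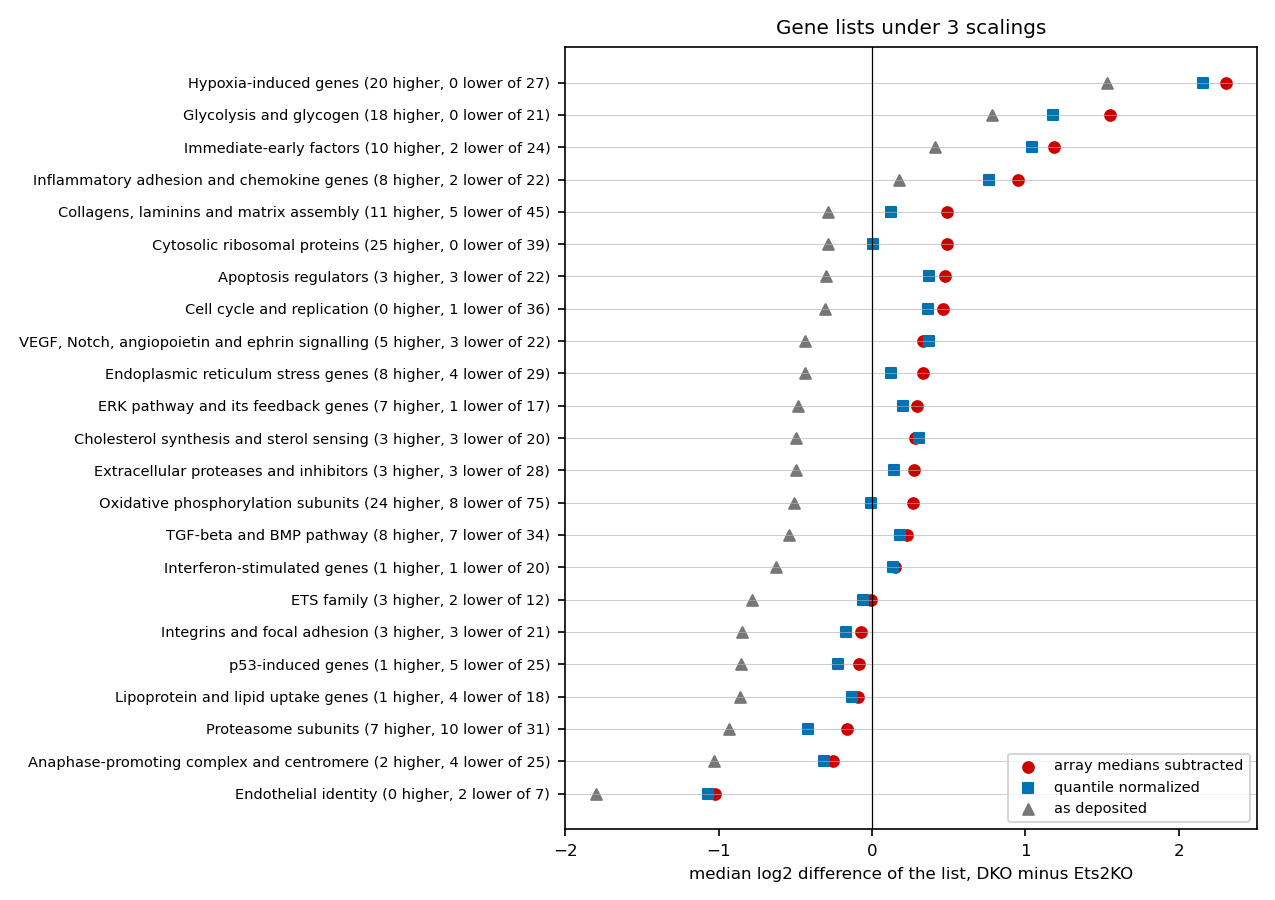
Each row is 1 of the 23 gene lists, and the x axis is the median log2 difference of its members, arrays labelled DKO minus Ets2KO, relative to array medians (red), after quantile normalisation (blue) and as deposited (grey); calls in brackets are relative to array medians. Hypoxia-induced (2.30, 2.16 and 1.53) and glycolysis genes (1.55, 1.18 and 0.78) are above 0 under all 3. The grey points are the red ones moved by the same -0.77, which puts 12 of 16 lists with a positive median, ribosomal proteins among them (0.49 to -0.29), below 0.

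Markers of other cell types were read in the same arrays. Fibroblast markers (8 of 10 measured) gave 2 higher and 1 lower (25% and 12.5%, against 19.6% and 12.3% of all genes) with a median of 1.23. Their mean was 0.43, 1.03 and 1.80 in Ets2KO and 1.72 and 1.12 in the arrays labelled DKO. Pdgfra, which defines fibroblasts, read 3.84 to 4.15 and 3.03 and 3.64, well above the array median in both groups. The smooth muscle actin Acta2 read 0.29, 0.29 and 0.04 in Ets2KO and 5.75 and 2.21 in the arrays labelled DKO (3.77, adjusted p = 0.021), while the mean over 6 smooth muscle markers was -1.14 to -0.69 and 0.68 and -0.59. Macrophage and leukocyte markers (5 of 13) lay below the array median in the list's mean (-2.34 to -1.97 in Ets2KO, -1.62 and -1.37 in the arrays labelled DKO). Msln, a mesothelial marker, read -4.64 to -4.14 and then 1.58 and -1.47 (4.38, adjusted p = 0.0332). The part of these other cells in the rises of collagen and matrix genes was not tested.

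Whether the groups labelled as differing in Ets1 differed alike in both Ets2 backgrounds was tested as an interaction, the difference of DKO from Ets2KO minus that of Ets1KO from WT, which share no arrays. The sex patterns of these pairs are unequal, all male against all female for the former and mixed against all female for the latter. The pairs also differ in virus, with Cre in the former and eGFP alone in the latter. Within the latter, Ets1KO carries floxed Ets2 and WT does not. The interaction cannot tell these differences from the Ets1 and Ets2 genotypes. It passed in 1732 genes (16.2%), 1029 of them positive (9.63%) and 703 negative (6.58%), and in 670 with the sex-linked covariate. Of the 3408 genes called between DKO and Ets2KO, 1643 also had an interaction in the same direction. Those genes were picked by a difference that is itself part of the interaction, so this count is raised by the choice. Across the 10687 genes, which are not independent replicates, the effects in the backgrounds correlated with Pearson r of 0.189 and Spearman rho of 0.124. The effects had an SD of 0.949 between DKO and Ets2KO and 0.492 between Ets1KO and WT. Of the 3408 calls, 1811 (53.1%) had the same sign in Ets1KO minus WT, where a single gene passed the test (0.00936%). Hypoxia-induced genes had a median of -0.15 there and glycolysis genes of -0.06, against 2.30 and 1.55 for DKO minus Ets2KO. Aldoa showed an interaction of 1.52 (adjusted p = 0.00219), Nfkbiz of 5.06 (adjusted p = 8.53e-04), Anapc5 of -4.33 (adjusted p = 5.07e-04) and Erf of -1.37 (adjusted p = 0.00761). Anxa8 and Rgs17 had no such call: Anxa8 was 2.82 higher in Ets1KO than in WT (interaction 0.08, adjusted p = 0.966) and Rgs17 was 2.02 lower (interaction -0.83, adjusted p = 0.626).

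**Figure D5:**
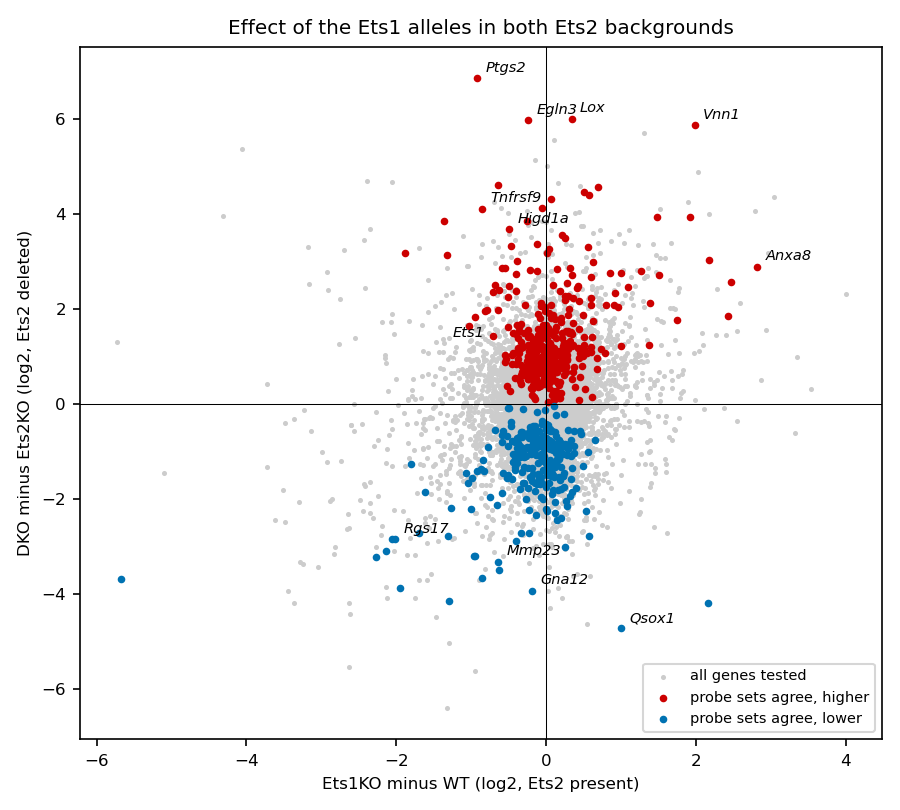
Each point is 1 of 10687 genes, with the log2 difference of Ets1KO minus WT (eGFP virus) on the x axis and of the arrays labelled DKO minus Ets2KO (Cre virus) on the y axis; coloured genes are the 424 and 259 whose probe sets agree. The cloud is taller than it is wide (SD 0.949 against 0.492), and Egln3, at 5.98 on the y axis, lies at -0.24 on the x axis.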

How the data were processed

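The series matrix holds log2 expression per Affymetrix probe set as deposited by the authors, made with RMA per the submitters' processing notes; no source used here gives a version. It covers 20523 probe sets on 12 arrays, and 18824 carry 1 gene symbol, 549 several and 1150 none in the platform annotation. Symbols were updated through RefSeq for 18788. Array medians were subtracted, the third DKO column was left out, and limma 3.58.1 in R 4.3.3 (lmFit, eBayes) was fitted to 4 group means over 11 arrays (7 residual and 2.13 prior degrees of freedom). Benjamini-Hochberg adjustment ran over all 11015 genes, or over all probe sets for agreement, with calls at 0.05. Of the 10687 genes kept, 32 have no chromosome in RefSeq.

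The genes, the 23 gene lists and 10 marker lists were chosen with earlier results of these data known. Named are Ets1, Ets2 and the 14 largest mean rises and 14 largest falls over probe sets among called, agreeing genes without overlap. For these rises and falls, the higher group mean at the brightest probe set had to be above the median of all genes. Per list, at most 4 called members are named, with agreeing ones first. On simulated data for DKO against Ets2KO (11015 genes) the fit recovered 45% of genes changed by a log2 of 1 and 93% of those changed by 3, with 7 false calls. Only 100 genes of each size were changed, with noise independent between genes, whereas 31.9% of genes were called in the data. These rates therefore do not carry over to this comparison. Alternatives were scaling, probe set rule, arrays fitted, array weights, intensity trend, replicate block, filter and each array left out; the sex-linked covariate and the agreement under all 3 scalings were added after the data were seen. The number of arrays limits the precision. Figures were drawn with matplotlib 3.10.9 in Python 3.11.15.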

Additional observations from a re-analysis of the deposited data

Results flagged for a closer look

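For 13 of the 30 targets and largest changes, the difference of the arrays labelled DKO from Ets2KO differed from that of Ets1KO from WT by limma's interaction test, relative to array medians. Among all genes 16.2% passed that test. The largest changes were chosen by the difference of DKO from Ets2KO, which is part of the interaction. Their count is therefore raised by that choice and is no separate support. The values are the former difference minus the latter, in log2, and both Ets1 and Ets2 read against the DKO label. Ets1 itself was among them at 2.64 (adjusted p = 0.00233), being lower in Ets1KO than in WT and higher in the arrays labelled DKO than in Ets2KO. Positive values were found for Egln3 (6.22, adjusted p = 7.94e-04), Ptgs2 (7.79, adjusted p = 0.00358), Higd1a (4.19, adjusted p = 8.33e-04) and Tnfrsf9 (4.97, adjusted p = 5.07e-04). They were also found for Ero1a (3.51, adjusted p = 0.00476), Col1a1 (3.24, adjusted p = 0.0283), Pdk1 (3.18, adjusted p = 0.00365) and Tpd52 (3.34, adjusted p = 0.00494). Negative values were found for Qsox1 (-5.73, adjusted p = 0.0015), Gna12 (-3.74, adjusted p = 0.0021), Rgs3 (-2.40, adjusted p = 0.00333) and Cd99 (-3.37, adjusted p = 0.00494).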

How the results depend on the processing

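The arrays labelled DKO differed from Ets2KO in overall level, in sex-linked transcripts and in the agreement of probe sets, and with 2 arrays no setting can tell these from genotype. As deposited 310 genes were higher and 4685 lower, 50 and 1568 with agreeing probe sets, and 3410 had an interaction; agreement under all 3 scalings left 50 higher genes. With only the DKO and Ets2KO arrays the counts were 1177 and 796, and 244 and 169 with agreement. With only features above the median they were 1374 and 849, and 216 and 126. The sex-linked covariate left 115 higher and 174 lower, 24 and 29 with agreement, and 670 interactions. Requiring every probe set to be called left 271 higher genes. Keeping the third DKO column gave 2784 interactions.

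Leaving out 1 array at a time gave 1382 to 2310 genes higher, 993 to 1423 lower, 244 to 467 and 169 to 288 with agreement, and 979 to 1797 interactions. The lowest counts of higher and of agreeing genes came without DKO replicate 2 (1382, 244 and 169); agreeing higher genes were 270 and 278 without Ets2KO replicate 1 or 2. Interactions were 979 and 994 without Ets1KO replicate 2 or 3, 1075 and 1092 without Ets2KO replicate 1 or 2, and 1096 without DKO replicate 1. Same-numbered arrays did not deviate together (correlations -0.328 to 0.106), so the numbers do not pair the arrays; with the replicate block 1726 genes were higher, 1119 lower and 1101 had an interaction. Among named genes the sign turned for Adam17 (-0.65 with the mean of probe sets), Psmc6 (-0.11 as deposited), Rps29 (-0.15 as deposited) and Rps28 (-0.36 as deposited, -0.076 with quantile normalisation). Of 103 named and called genes, 30 lost their call without DKO replicate 1, 25 without DKO replicate 2, 26 as deposited and 83 with the sex-linked covariate. Where a cause is not given, the cause was not tested.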
